A study of Mus musculus with 12 samples.

Results

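The genes described are 10 markers and signalling genes of blood vessels: the endothelial junction genes Pecam1 and Cdh5, the vascular endothelial growth factor (VEGF) receptors Kdr and Flt1, the ligands Vegfa and Vegfb, the angiopoietin receptor Tek with its partner Tie1, the ligand Angpt1, and the co-receptor Eng. They were taken by symbol from a table of 23923 genes, and all 10 were listed in every sample. RNA was sequenced from the tibialis anterior, a fast leg muscle, of 6 control mice and 6 Smyd1 conditional knockouts (CKOs), all 6 weeks old, with 1 library for each of the 12 animals. Control mice were Myf6 cre/+; Smyd1 flox/+ and CKO mice were Myf6 cre/+; Smyd1 flox/-, so both groups carried the Cre allele, and both were of the mixed strain C57BL6/J;129S1/SvImJ. By the study's breeding scheme the mice also carried a Rosa26 YFP reporter allele. The study states that its experiments after the comparison of the sexes used only male tissue. SMYD1 is a muscle methyltransferase, and the study asked how its loss affected the transcriptome of muscle cells, which was read here in RNA of the whole muscle. Myf6 is expressed in differentiating and mature muscle fibres, so Cre was driven in fibres and not by an endothelial promoter.

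Capillaries run along every muscle fibre, and the fibres themselves are a source of VEGF. VEGF-A binds KDR, the main signalling receptor of endothelial cells, and binds FLT1 more tightly but with little kinase activity, while VEGF-B binds FLT1 and not KDR. Angiopoietin 1 comes largely from perivascular and stromal cells and activates TEK (also called TIE2) on the endothelium, where TIE1 modulates it.

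No member passed an adjusted P of 0.05 in either direction in limma, against 2.02% of the 12695 genes tested that were higher and 0.268% that were lower in the CKO. At those shares, 0 calls among 10 genes does not set the members apart from other genes. The lowest P belonged to Vegfb, whose mean was 13.6 ± 2.30 FPKM in control muscle and 10.8 ± 1.69 FPKM in CKO muscle (SD, 6 mice each). The 95% confidence interval of the difference lay inside a 2-fold change for all 10 genes, with bounds from -0.65 to 0.82 on the log2 scale. After the median-ratio scaling described with the comparison it also did so, with bounds from -0.89 to 0.60. Changes of less than 2-fold are not excluded by these intervals. Before correction for the number of genes, the interval of Vegfb excluded 0 on both scales and that of Vegfa after scaling. FPKM counts sequenced fragments relative to transcript length and library size, so that levels of different genes can be set side by side. In whole muscle, fewer cells of a type and less RNA per cell cannot be told apart.

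The starts of the 4 genes of the VEGF branch are shown because both ligands had the lowest CKO level relative to controls and Kdr and Flt1 are the receptors of these ligands. Each sequence runs from 250 to 11 bases before the gene start in RefSeq (GRCm38.p6), 5′ to 3′ on the strand of the gene, which is the minus strand for all 4. The capitals mark 3 motifs on either strand, the GC box (GGGCGG or CCGCCC), the ETS core (GGAA or TTCC, the centre of the site of a factor family with many endothelial members) and a TATA sequence (TATAAA or TTTATA). Capitals can run together where matches adjoin or overlap.
Vegfa: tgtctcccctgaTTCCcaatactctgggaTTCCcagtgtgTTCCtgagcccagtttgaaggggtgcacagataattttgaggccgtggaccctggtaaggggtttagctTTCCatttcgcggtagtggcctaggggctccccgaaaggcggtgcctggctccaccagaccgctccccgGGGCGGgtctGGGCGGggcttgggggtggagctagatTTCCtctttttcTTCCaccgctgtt
Vegfb: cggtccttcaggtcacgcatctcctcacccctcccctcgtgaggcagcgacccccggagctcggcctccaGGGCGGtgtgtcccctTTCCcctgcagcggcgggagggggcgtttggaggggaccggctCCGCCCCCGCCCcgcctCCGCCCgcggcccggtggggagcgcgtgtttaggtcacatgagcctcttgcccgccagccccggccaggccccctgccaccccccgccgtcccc
Kdr: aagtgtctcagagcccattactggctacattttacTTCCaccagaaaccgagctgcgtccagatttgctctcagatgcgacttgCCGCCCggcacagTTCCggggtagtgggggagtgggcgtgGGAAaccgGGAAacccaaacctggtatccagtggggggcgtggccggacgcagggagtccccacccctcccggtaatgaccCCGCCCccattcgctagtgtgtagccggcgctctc
Flt1: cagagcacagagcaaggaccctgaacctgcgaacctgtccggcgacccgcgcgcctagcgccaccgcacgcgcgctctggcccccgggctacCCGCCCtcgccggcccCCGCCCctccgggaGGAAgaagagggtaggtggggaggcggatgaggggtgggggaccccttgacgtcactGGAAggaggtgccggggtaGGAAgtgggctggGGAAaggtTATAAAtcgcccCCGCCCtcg
The windows lie at chr17:46032388-46032627 for Vegfa, chr19:6987662-6987901 for Vegfb, chr5:75978466-75978705 for Kdr and chr5:147726022-147726261 for Flt1. The Vegfa window held 2 GC boxes and 6 ETS cores, and is the more upstream of 2 windows listed for the gene. The Vegfb window, the richest in G and C at 76.2%, held 4 GC boxes and 1 ETS core. Kdr had 2 GC boxes and 4 ETS cores, Flt1 had 3 GC boxes and 4 ETS cores, and of these 4 only Flt1 had a TATA match. Of 32851 mouse promoter windows of this length, 31.3% held a GC box, 92.7% an ETS core and 12.1% the TATA sequence, so an ETS core is common to most promoters. A match is a description of the letters and not a binding site. A promoter sequence was found for 7 of the 10 members, and Pecam1, Cdh5 and Angpt1 had none.

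In control muscle the mean level fell from Vegfa through Vegfb, Pecam1, Cdh5, Flt1, Kdr, Tek, Angpt1 and Tie1 to Eng, or from 32.0 to 1.83 FPKM. Neighbours in that order were not all distinct. Vegfa was above Vegfb in all 12 mice, but Pecam1 was above Cdh5 in 6 of 12, and Flt1 was above Kdr, Kdr above Tek, and Angpt1 above Tie1 in 8 of 12 each. Vegfb was above Pecam1 in all 6 controls but in 3 of 6 CKOs. Cdh5 exceeded Flt1 in 11 mice, Tek exceeded Angpt1 in 10, and Tie1 exceeded Eng in 11.

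**Figure D1:**
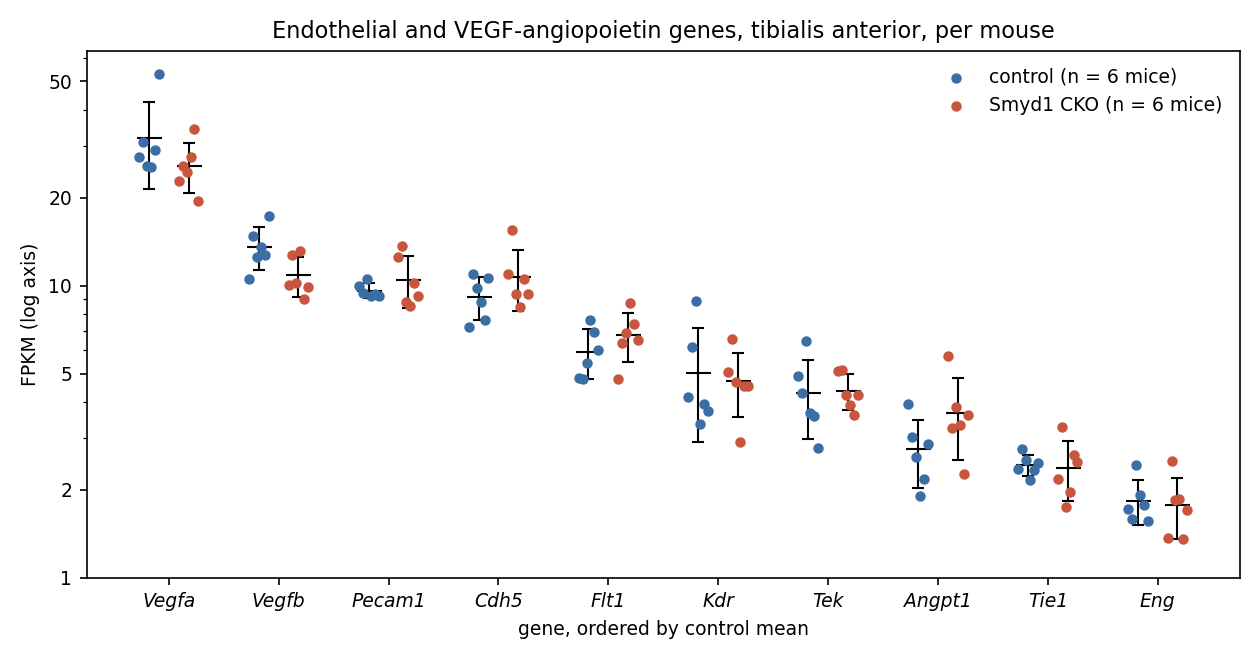
FPKM of the 10 genes in each of 12 mice, on a log axis, with genes ordered from left to right by their control mean, control mice in blue and Smyd1 CKO mice in red. The horizontal dash is the group mean and the bar 1 SD. Control and CKO points overlap for every gene, and 1 control mouse stands above the others for Vegfa at 53.0 FPKM.

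Vegfa and Vegfb, the ligands, were the 2 members with the most negative difference between CKO and control. Vegfa (GRCm38 chromosome 17, 46016993 to 46032369), which drives endothelial growth and permeability, had 27.5, 31.0, 25.7, 25.5, 29.2 and 53.0 FPKM in controls 1 to 6. Its CKO values were 22.8, 25.6, 24.4, 27.6, 34.2 and 19.5 FPKM. The groups overlapped, with 3 CKO mice below the lowest control and 1 above the control median. The log2 fold change was -0.28 ± 0.17 (SE), with a 95% interval of -0.65 to 0.086 and an adjusted P of 0.368. Much of this difference came with 1 mouse, since without control 6 the log2 fold change was -0.13.

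Vegfb (chromosome 19, 6982473 to 6987651), a ligand of FLT1 best known for its link to lipid use in heart and muscle, had 10.5, 14.8, 12.6, 13.5, 12.8 and 17.3 FPKM in controls. In the CKOs it had 10.03, 12.7, 10.2, 13.2, 9.02 and 9.91 FPKM. Of the 6 CKO mice, 4 lay below the lowest control and 1 above the control median, although CKO 4 reached the middle of the control range. The log2 fold change was -0.32 ± 0.13 (SE), or 0.801-fold, with a 95% interval of -0.59 to -0.045. The unadjusted P was 0.0253 and the adjusted P in limma 0.187, so that the difference did not pass correction for the number of genes tested. At the unadjusted threshold, 1 of the 10 members was lower and 0 were higher, against 1.76% and 18.1% of all genes tested.

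Kdr (chromosome 5, 75932827 to 75978458), the main VEGF-A receptor, varied most among mice of all 7 endothelial genes. The control values were 4.14, 6.14, 8.86, 3.35, 3.94 and 3.73 FPKM, and the CKO values 5.08, 6.56, 4.69, 2.91, 4.52 and 4.52 FPKM. Controls alone spanned more than the CKOs, with control 3 the highest of the 12 mice. The log2 fold change was -0.042 ± 0.23 (SE), with an adjusted P of 0.936. Flt1 (chromosome 5, 147561604 to 147726011), the high-affinity receptor that also has a soluble form, had 4.85, 4.79, 5.44, 7.61, 6.96 and 6.04 FPKM in controls. Its CKO values were 4.81, 6.36, 6.89, 8.71, 7.37 and 6.49 FPKM. The ranges overlapped widely, and 5 of 6 CKO values were above the control median. The log2 fold change was 0.18 ± 0.15 (SE), with an adjusted P of 0.498. A gene-level FPKM does not separate the soluble from the membrane form.

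Angpt1 (chromosome 15, 42424723 to 42676977), the agonist of TEK, had the largest positive difference among the members. It had 3.93, 3.04, 2.60, 1.90, 2.18 and 2.87 FPKM in controls and 5.74, 3.25, 3.84, 3.33, 2.27 and 3.60 FPKM in CKOs. The groups overlapped, with CKO 1 the highest mouse and 5 of 6 CKO values above the control median. The log2 fold change was 0.39 ± 0.20 (SE), or 1.31-fold, with a 95% interval of -0.042 to 0.82. The unadjusted P was 0.0740 and the adjusted P in limma 0.296. The log2 fold change was 0.25 without CKO 1, and with sample weights it was 0.61 with an adjusted P of 0.0462.

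Tek (chromosome 4, 94739289 to 94874976), the receptor of the angiopoietins, ran from 2.79 through a median of 3.97 to 6.45 FPKM in controls and from 3.60 through 4.23 to 5.14 FPKM in CKOs. The CKO values all lay within the control range, and the log2 fold change was 0.067 ± 0.17 (SE), adjusted P = 0.852. Tie1 (chromosome 4, 118471191 to 118490061), the orphan receptor beside it, ran from 2.15 through 2.41 to 2.76 FPKM in controls and from 1.74 through 2.33 to 3.28 FPKM in CKOs. Here the CKO mice extended past the controls at both ends, and the log2 fold change was -0.055 ± 0.14 (SE), adjusted P = 0.855.

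Pecam1 (chromosome 11, 106654217 to 106750628), an adhesion molecule of endothelial junctions, varied least in controls. The control values were 10.01, 9.43, 10.6, 9.19, 9.33 and 9.22 FPKM, and the CKO values 12.5, 13.6, 8.80, 8.52, 10.2 and 9.19 FPKM. CKO 1 and CKO 2 lay above all controls and 2 other CKO mice lay below all controls, so the CKO values spread to both sides. The SD of the log2 values was 0.080 in controls and 0.28 in CKOs, and the log2 fold change was 0.10 ± 0.12 (SE), adjusted P = 0.661. Whether the spread differed was not tested.

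Cdh5 (chromosome 8, 104101625 to 104144511) encodes VE-cadherin, the endothelial cadherin. It ran from 7.22 through a median of 9.299 to 10.98 FPKM in controls and from 8.48 through 9.95 to 15.5 FPKM in CKOs. CKO 2 alone exceeded the highest control, and the log2 fold change was 0.21 ± 0.15 (SE), adjusted P = 0.437. Eng (chromosome 2, 32646595 to 32682669) encodes endoglin, a TGF-beta co-receptor of endothelial cells. It was the lowest member, from 1.57 through 1.75 to 2.43 FPKM in controls and from 1.36 through 1.78 to 2.52 FPKM in CKOs. Here 2 CKO mice lay below and 1 above the control range, and the log2 fold change was -0.056 ± 0.16 (SE), adjusted P = 0.869.

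No member had groups that did not overlap, where 2.23% of all genes tested had every CKO value above every control value and 0.189% the reverse. The median log2 fold change was 0.013 over the 10 members and 0.176 over all genes tested, of which 77.9% were positive against 5 of 10 members. Because most genes leaned to the CKO, each library was also divided by a factor, the median over genes of its FPKM relative to their geometric mean (median-ratio scaling), which brought the median of all genes to 0.0079. On that scale 2 members had a positive value and the members' median was -0.17. Vegfb was then -0.51, with an unadjusted P of 0.00730 and an adjusted P of 0.157 in limma. Vegfa was -0.47, with an unadjusted P of 0.0301 and an adjusted P of 0.290 in limma. These were the only members with an unadjusted P under 0.05 on that scale, both lower, against 7.44% of all genes lower and 6.62% higher. Pecam1, Tek and Flt1 changed sign with the scaling, to -0.086, -0.12 and -0.0014, while Cdh5 and Angpt1 stayed positive.

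**Figure D2:**
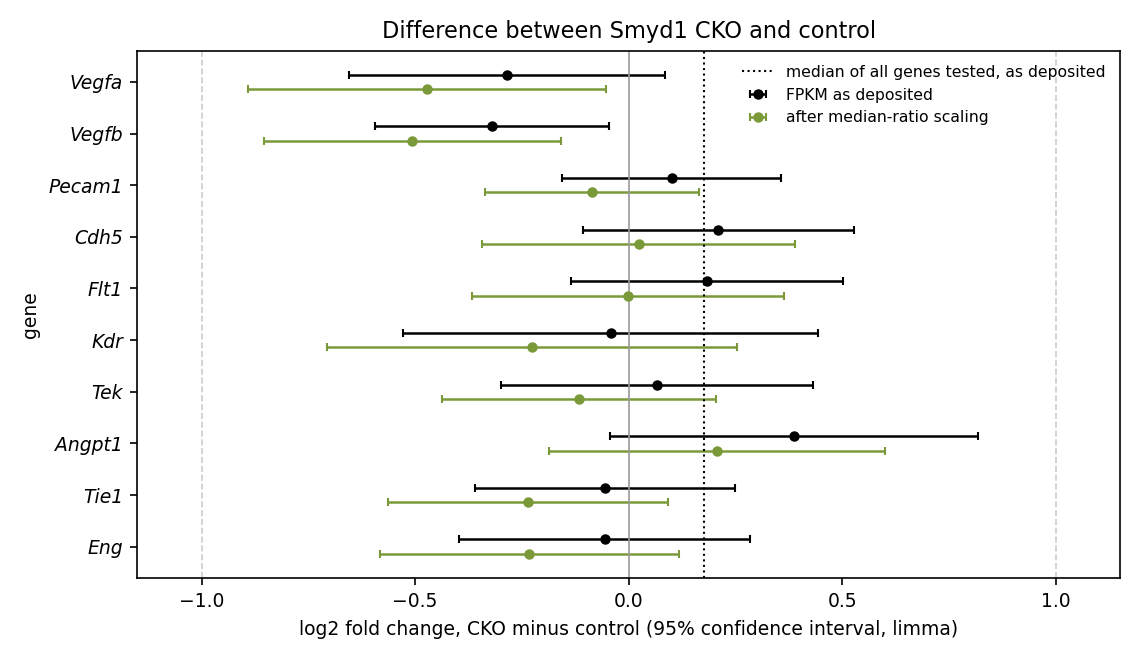
Log2 fold change of each gene, CKO minus control, on log2(FPKM + 0.1), with its 95% confidence interval from limma for the FPKM as deposited (black) and after median-ratio scaling (green). The dotted line is the median of all genes tested at 0.176 and the dashed lines mark a 2-fold change. All intervals lie between the dashed lines, and those of Vegfb exclude 0 on both scales before correction for the number of genes.

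Ratios between members of 1 library move little when the whole library is scaled, and 5 were taken with 0.1 FPKM added to each value and compared between groups by a two-sided exact permutation test over all assignments of the mice to groups. None differed at an adjusted P below 0.05 over the 5 ratios. The log2 ratio of Vegfa to Vegfb was 1.19 ± 0.258 in control and 1.23 ± 0.351 in CKO muscle (SD, 6 mice each), and differed by 0.035 (exact permutation P = 0.855, adjusted P = 0.855). The log2 ratio of Angpt1 to Tek, ligand over receptor, was -0.61 ± 0.462 in controls and -0.28 ± 0.314 in CKOs, a difference of 0.32 (exact permutation P = 0.188, adjusted P = 0.709). Tie1 lay below Tek in all 12 mice, and that ratio differed by -0.12 (exact permutation P = 0.567). With that addition, the ratio of Vegfa to Kdr ranged from 2.88 to 13.9 across the mice and differed by -0.24 on the log2 scale (exact permutation P = 0.539). The ratio of Flt1 to Kdr ranged from 0.619 to 2.93 across the mice. Its log2 value was 0.30 ± 0.715 in controls and 0.53 ± 0.595 in CKOs, and the difference of 0.23 was smaller than the SD of either group (exact permutation P = 0.556).

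**Figure D3:**
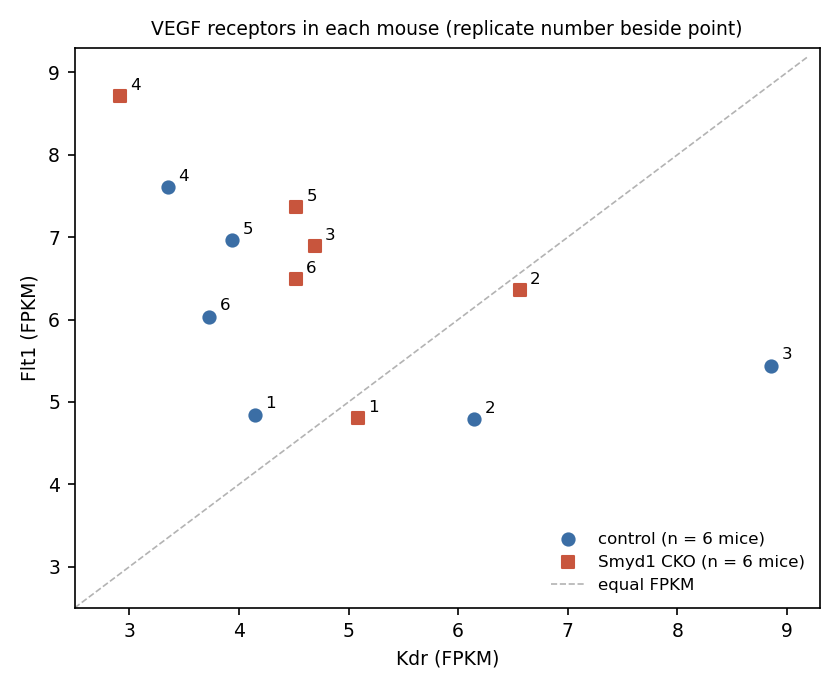
Kdr (x axis) against Flt1 (y axis), both in FPKM, in each of 12 mice, with controls as blue circles, CKOs as red squares, the replicate number beside each point and a dashed line at equal levels. On the log2 scale, deviations of Kdr and Flt1 from the group mean had r = -0.60, which did not pass adjustment over the 45 pairs of genes, and 4 of 12 mice lie below the line.

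How the members moved together from mouse to mouse was described from the deviations of log2(FPKM + 0.1) from the group mean. All genes of a mouse share 1 library and its scaling. Of 45 pairs, 27 had a positive Pearson's r, and among the endothelial genes Pecam1, Cdh5, Kdr, Tek, Tie1 and Eng it was positive in 15 of 15 pairs. That uniform sign depended on a few mice and on the measure, since rho was negative in 3 of the 15, all with Eng, r was negative within controls in 4, and r was negative in 2 without the 2 mice farthest out. Flt1, also among the 7 endothelial genes, was left out of that count, so the uniform sign describes a chosen subset. With Flt1 the sign was not uniform, as it had a negative r with 5 of these 6 genes, Eng being the exception. No pair passed an adjusted P of 0.05 over the 45 pairs by r or by Spearman's rho in a permutation test within groups with 100000 draws, and 11 pairs had an unadjusted P of r below 0.05. The lowest P was for Pecam1 and Kdr, with r = 0.62 (permutation P = 0.00123, adjusted P = 0.0554) and rho = 0.68 (permutation P = 0.00726, adjusted P = 0.165). That r was 0.77 within controls, 0.80 within CKOs and 0.59 without the 2 mice farthest out in Pecam1.

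The receptors of VEGF had a negative correlation that did not pass adjustment. Kdr and Flt1 had r = -0.60 (permutation P = 0.0486, adjusted P = 0.199) and rho = -0.71 (permutation P = 0.0164, adjusted P = 0.165), with r = -0.57 within controls, -0.67 within CKOs and -0.59 without the 2 mice farthest out in Kdr. Flt1 and Angpt1 had r = -0.80 (permutation P = 0.00612, adjusted P = 0.0918) and rho = -0.75 (permutation P = 0.0118, adjusted P = 0.165). Within controls that r was -0.90, within CKOs -0.72, and -0.80 without the 2 mice farthest out in Flt1. Kdr and Tek, receptors of the same cells, had r = 0.76 (permutation P = 0.0109, adjusted P = 0.108) and rho = 0.66 (permutation P = 0.0358, adjusted P = 0.201), and 0.62 without the 2 mice farthest out in Kdr. Pecam1 and Cdh5, both junction genes, had r = 0.66 (permutation P = 0.0193, adjusted P = 0.145) and rho = 0.52 (permutation P = 0.0822, adjusted P = 0.336). That relation rested on CKO mice, since r was -0.11 within controls and 0.91 within CKOs, and it was 0.39 without CKO 1 and CKO 2.

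**Figure D4:**
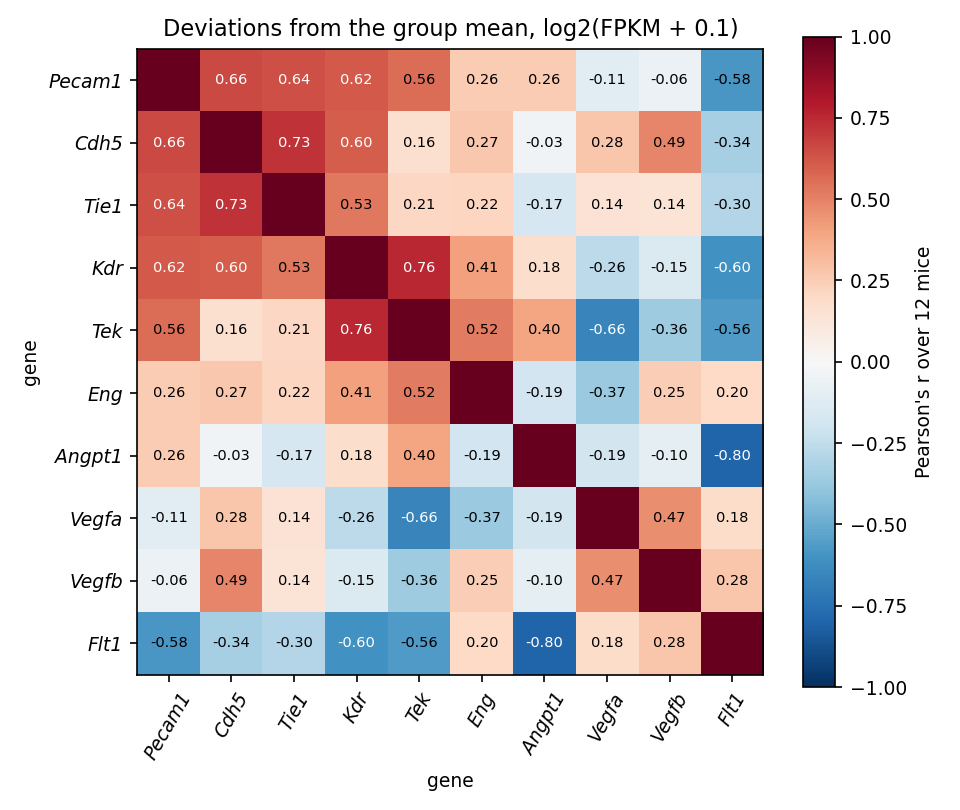
Pearson's r between the deviations of log2(FPKM + 0.1) from the group mean for each pair of the 10 genes over 12 mice, from blue at -1 to red at 1. The genes are in a chosen order with Flt1 placed last, apart from the other endothelial genes. The block from Pecam1 to Eng is positive throughout, and Flt1 is negative with 5 of those 6 genes and reaches -0.80 with Angpt1.

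The mean deviation of the 7 endothelial genes, Flt1 included, was highest in CKO 2 at 0.37 and control 3 at 0.30, and the other 10 mice lay between -0.16 and 0.054. Among the genes tested that are no members, the 5 closest to this mean by r were Thap1 at 0.93, Ifi203 at 0.90, Ahr at 0.88, Aqp7 at 0.88 and Ets1 at 0.84, with rho of 0.74, 0.85, 0.80, 0.66 and 0.87. Without control 3 and CKO 2 the r values were 0.68, 0.66, 0.69, 0.42 and 0.76. Ets1, an ETS factor, kept the highest r of these 5 without those mice. They were picked as the best of all genes tested, so no test is attached.

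Other endothelial genes gave no adjusted call either. All 30 genes of an endothelial identity list passed the filter, and 0 passed the adjusted threshold in either direction. At the unadjusted threshold 1 was higher, Plvap, the protein of endothelial diaphragms, at 0.878 ± 0.336 against 1.42 ± 0.511 FPKM in the CKO (SD, 6 mice each, log2 fold change 0.62, adjusted P = 0.229 in limma). The next lowest P was that of the ETS factor Fli1, with a log2 fold change of 0.34 and an adjusted P of 0.290. The list's median log2 fold change was 0.14 as deposited and -0.041 after scaling, against 0.176 and 0.0079 for all genes and 0.013 and -0.17 for the 10 members. A positive value was found for 25 of the 30 as deposited and 11 after scaling, against 77.9% and 51.2% of all genes tested. At the unadjusted threshold as deposited, 18.1% of all genes tested were higher, beside the 1 of 30 here. Its summed level was 75.7 to 102.6 FPKM in controls and 82.6 to 124.2 FPKM in CKOs.

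Of 24 listed symbols of VEGF and angiopoietin ligands, co-receptors and effectors, 23 were in the table and 21 passed the filter. In this list 2 genes rose at the adjusted threshold and 0 fell, where 2.02% of all genes tested were higher and 0.268% lower. Itgav, the integrin alpha V chain found on endothelial and many other cells, rose from 5.36 ± 0.952 to 9.76 ± 1.18 FPKM (SD, n = 6), with every CKO mouse above every control (log2 fold change 0.86 ± 0.12 (SE), adjusted P = 0.00265 in limma). After scaling its log2 fold change was 0.68 with an adjusted P of 0.00201. Plcg1, the phospholipase recruited by KDR and by many other receptors, rose from 1.93 ± 0.306 to 2.89 ± 0.458 FPKM (SD, n = 6), again with no overlap (log2 fold change 0.56 ± 0.14 (SE), adjusted P = 0.0461 in limma). That call was lost after scaling, where the log2 fold change was 0.38 and the adjusted P 0.181. At the unadjusted threshold 5 of the 21 partners were higher and 1 was lower, against 18.1% and 1.76% of all genes, and after scaling 4 were higher and 3 lower, against 6.62% and 7.44%. The one that was lower with the FPKM as deposited, named after its values were seen, was Figf, which encodes the lymphatic growth factor VEGF-D, at 0.388 ± 0.1497 against 0.218 ± 0.0468 FPKM in the CKO (SD, 6 mice each, log2 fold change -0.58, adjusted P = 0.171 in limma).

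**Figure D5:**
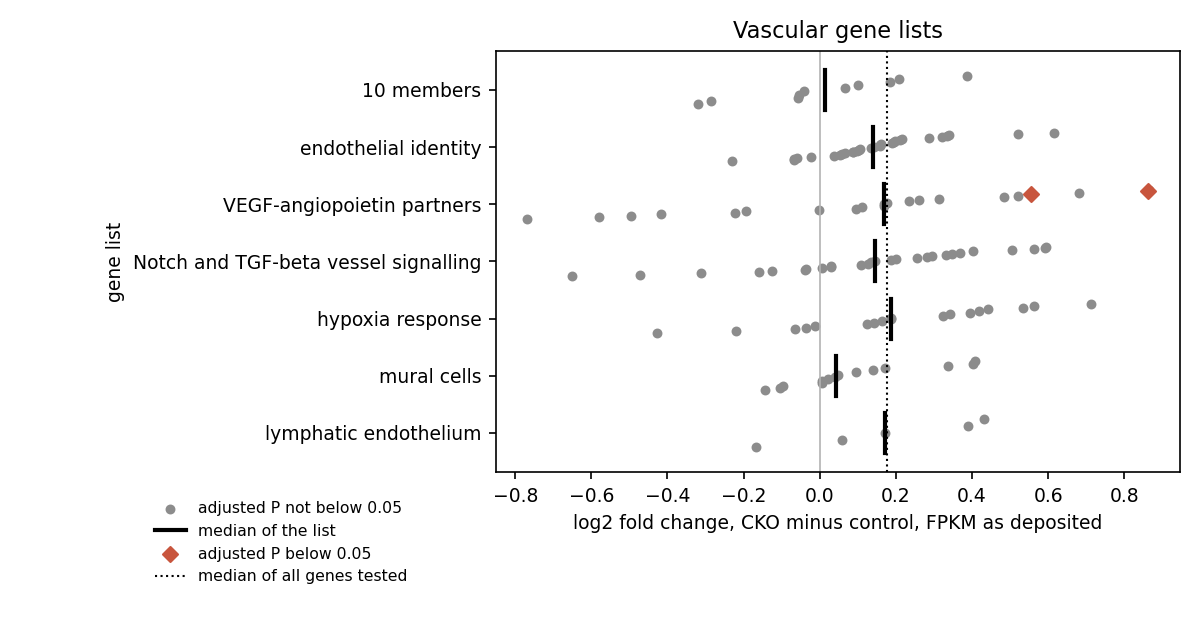
Log2 fold change, CKO minus control, of each gene in 7 vascular lists for the FPKM as deposited, with the list's median as a black bar and the median of all genes tested, 0.176, as a dotted line. Red diamonds mark the 2 genes with an adjusted P below 0.05, Itgav and Plcg1, both among the VEGF-angiopoietin partners, and the list medians lie between 0.013 and 0.19.

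The Notch and TGF-beta signals that pattern vessels gave 0 calls at the adjusted threshold among 27 genes, with 7 higher and 0 lower before adjustment. The share of all genes was 18.1% higher and 1.76% lower. After scaling the list held 1 higher and 1 lower, against 6.62% and 7.44% of all genes. The lowest P values were those of Tgfbr3, the co-receptor betaglycan related to endoglin, with a log2 fold change of 0.59 and an adjusted P of 0.0875, and of the Notch ligand Dll1, at 0.56 and 0.155. The list for the hypoxia response, which controls Vegfa in many tissues, also gave 0 adjusted calls among 18 genes. Before adjustment 3 were higher and 0 lower, against the same 18.1% and 1.76% of all genes. After scaling 1 gene of the list was higher and 2 were lower, against 6.62% and 7.44% of all genes. The list held Ppargc1a and Esrra, which are regulators of energy metabolism and not hypoxia genes as such. Ppargc1a, named after its values were seen, was 1 of the 2 lower. Pdk1, a kinase that limits pyruvate oxidation, had 8.16 ± 0.448 FPKM in control and 11.1 ± 1.91 FPKM in CKO muscle (SD, 6 mice each), with every CKO mouse above every control (log2 fold change 0.42, adjusted P = 0.0693 in limma). Egln3, an oxygen-sensing prolyl hydroxylase, had a log2 fold change of 0.71 and an adjusted P of 0.168.

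The list for mural cells, the pericytes and smooth muscle around vessels, gave 0 adjusted calls among 14 genes. The 14 include Pdgfb, a ligand made by endothelial cells that acts on mural cells. Before adjustment 1 of the 14 was higher and 0 were lower, and after scaling 0 were higher and 1 was lower. Of all genes tested, 18.1% were higher and 1.76% lower before adjustment, or 6.62% and 7.44% after scaling. Of the 14, 11 had a positive log2 fold change as deposited and 3 after scaling, against 77.9% and 51.2% of all genes tested. The median of the 14 was 0.044 as deposited and -0.14 after scaling. The smallest P values were those of the pericyte genes Cspg4 and Anpep, with log2 fold changes of 0.40 and 0.41 and adjusted P of 0.229 and 0.271. Their summed level was 85.4 to 128.0 FPKM in controls and 89.6 to 113.8 FPKM in CKOs. Lymphatic endothelium gave 0 calls among 5 markers at either threshold, beside the same shares of all genes. A listed marker that was not tested, Ccl21a, stood at 0 in all 12 mice. Reln and the lymphatic receptor Lyve1 had log2 fold changes of 0.39 and 0.43 with adjusted P of 0.356 and 0.557.

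Markers of other tissue components were read beside these values. Summed fibroblast markers were 270.3 to 993.7 FPKM in controls, with control 1 the highest, and 395.6 to 599.6 FPKM in CKOs, and 4 of 9 were higher at the unadjusted threshold, or 2 after scaling. The share of all genes higher was 18.1%, or 6.62% after scaling. Adipocyte markers summed to a median of 1.24 and at most 3.03 FPKM in controls and 2.62 to 7.31 FPKM in CKOs. Of the 4, 1, Retn, was higher at the adjusted threshold, against 2.02% of all genes tested. Retn had a median of 0 and a maximum of 0.159 FPKM in controls, and at least 0.147 FPKM in CKOs. The CKO values alone met the filter, and the size of its fold change depends on the 0.1 FPKM added. Leukocyte markers summed to 5.53 to 16.3 FPKM in controls and 5.21 to 12.1 FPKM in CKOs, with 0 of 7 past either threshold, and red cell markers to 12.9 to 52.0 and 19.6 to 40.9 FPKM, with 0 of 4. Of 6 Schwann cell markers, 3 were higher at the unadjusted threshold and 0 after scaling, against 18.1% and 6.62% of all genes tested. Slow fibre markers summed to 33.5 to 66.6 FPKM in controls and 48.0 to 353.7 FPKM in CKOs. CKO 6, CKO 1 and CKO 3 had 353.7, 177.4 and 114.1 FPKM, while CKO 2, CKO 4 and CKO 5 lay within the control range. Of the 9 markers, 7 were higher at the unadjusted threshold, or 6 higher and 1 lower after scaling. Fast fibre markers summed to 28804 to 47024 FPKM in controls and 31955 to 38721 FPKM in CKOs. Their median log2 fold change was -0.20, or -0.39 after scaling, and 4 of 12 were positive. At the unadjusted threshold 3 of the 12 were higher and 1 was lower, or 3 and 5 after scaling, and 1, Myh1, was higher at the adjusted threshold. The part of these shifts in the values of Vegfb, Vegfa and Angpt1 was not tested.

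Smyd1 itself was 47.1, 33.4, 41.1, 32.9, 33.8 and 36.1 FPKM in controls and 38.0, 32.1, 32.5, 27.8, 39.9 and 34.5 FPKM in CKOs, with a log2 fold change of -0.13 and an adjusted P of 0.545, or -0.32 and 0.0797 after scaling. A gene-level FPKM counts all exons, deleted or not, and all cells, so these values do not check the genotype. Libraries of a group correlated at 0.943 to 0.972 across genes. The number of reads per library is unknown, and the relative depth read from the lowest FPKM steps was lowest in CKO 5 (0.986 times that of control 1) and highest in CKO 1 (1.77 times). The study refers to control littermates but no litter is given for these 12 mice, so P measures the spread between them.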

How the data were processed

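Total RNA depleted of ribosomal RNA was sequenced from 12 tibialis anterior muscles. The authors removed adapters, mapped the reads with bowtie2 and tophat, kept those with a single position and computed the deposited FPKM per gene symbol with cufflinks. The submitters' processing notes name TopHat2 2.0.10, Cufflinks 2.1.1 and mm9, and the annotation is not given in the sources used here. The counts behind the authors' DESeq test were not used here. Of 23950 rows, 27 with a date for a symbol were left out. Genes that reached 0.1 FPKM in 6 or more of the 12 samples were tested on log2(FPKM + 0.1) with limma 3.58.1 in R 4.3.3 (intensity trend, no block, two-sided), with Benjamini-Hochberg adjustment over all genes tested and a threshold of 0.05. Fold changes on this scale understate those of low genes. FPKM carry no read counts, so no counting interval was given, and discarded multi-mapping reads make close paralogs uncertain.

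The members and lists were chosen with earlier results of these data known. The text names all 10 members, up to 5 genes of each vascular list past the adjusted threshold or the 2 with the smallest P where fewer than 2 passed, the 5 genes nearest the endothelial mean, and Smyd1. Outside this rule, Figf, Ppargc1a, Retn and Myh1 were named after their values were seen, and Pdgfb, Esrra and Ccl21a to describe their lists. Gene positions came from GENCODE M21 (GRCm38) by symbol and promoters from RefSeq (GRCm38.p6), so neither is on the mm9 of the files. Alternatives covered the pseudocount (1), the filter (1 FPKM, or no filter), the scaling (median-ratio, quantile), a replicate block, no intensity trend, sample weights, and each mouse left out in turn. The permutation tests of correlations were chosen after seeing the data. The code was tested on simulated data.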

Additional observations from a re-analysis of the deposited data

Results flagged for a closer look

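In 32 groups of 6 mice, covering the values and ratios described, 2 held a mouse whose gap to its nearest neighbour exceeded the 95% critical value of Dixon's test, and chance gives about 1 in 20. Vegfa in control 6 was 53.0 FPKM, where the other controls lay between 25.5 and 31.0 FPKM, a gap of 0.733 of the range. The log2 ratio of Vegfa to Vegfb in CKO 5 was 1.91, where the other CKO mice lay between 0.971 and 1.25, a gap of 0.704 of the range.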

How the results depend on the processing

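Across 20 settings each, no member passed the adjusted threshold except Angpt1 with sample weights (log2 fold change 0.61, adjusted P = 0.0462), so the count of members called higher moved from 0 to 1. Cdh5, Vegfa, Vegfb and Angpt1 kept their sign in every setting. Vegfb ran from -0.51 to -0.25 with adjusted P no lower than 0.0568, which was without control 1. The sign turned for Pecam1 with median-ratio scaling (-0.086) and quantile normalization (-0.046), for Flt1 with median-ratio scaling (-0.0014), and for Tek with both (-0.12 and -0.11). With 1 mouse left out, Kdr ran from -0.14 to 0.14, Tek from -0.043 to 0.19, Tie1 from -0.15 to 0.025 and Eng from -0.16 to 0.025, and the difference in the Vegfa to Vegfb ratio from -0.10 to 0.12. The cause of these turns was not tested.

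Of all genes, 257 were higher at the adjusted threshold, and 170 with no filter, 97 with median-ratio scaling, 101 with quantile normalization, 1400 with sample weights, and 88 to 1075 with 1 mouse left out, the most without control 1. The 34 lower became 90, 68 and 115 with median-ratio scaling, quantile normalization and sample weights, and 18 to 69 with 1 mouse left out. The 2 VEGF-angiopoietin partners called higher became 1 with a pseudocount of 1, no filter, either scaling, the replicate block or no trend, 5 with sample weights, and 1 to 4 with 1 mouse left out. Itgav was called in all of these settings and Plcg1 was the call lost where 1 remained. Sample weights called 2 genes of the Notch and TGF-beta list, 3 of the hypoxia list and 1 of the mural list higher. Leaving out 1 mouse called 0 to 2, 0 to 2 and 0 to 1, and 0 to 1 endothelial identity genes. No gene of these lists was called lower.

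Same-numbered mice were not shown to be paired: 2 of 6 correlations of their deviations were over 0.1, and 2 of 6 controls correlated best with their own number. With the replicate block 272 genes were higher and 40 lower, Vegfb had an adjusted P of 0.159, and Plcg1 lost its call (0.0852). The depth in reads is unknown, so the precision of low genes such as Eng and Tie1 could not be set beyond the spread between mice.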
